A study of Mus musculus with 20 samples.

Results

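The comparison described here is that of confluent with preconfluent 3T3-L1 cells, the step at which a dividing fibroblast culture fills its dish and stops growing, before any inducing hormone was given. 3T3-L1 is a mouse embryo fibroblast line used as a model of fat cell formation. The 4 arrays of this step were taken from the 20 arrays of the series: 1 preconfluent and 1 confluent sample on each of 2 Affymetrix array types, called array A and array B. The other samples were taken between 6 hours and 28 days after induction with MDI, the usual adipogenic cocktail of insulin, dexamethasone and the phosphodiesterase inhibitor isobutylmethylxanthine. The labels give no genotype or treatment beyond this, do not say how long the confluent cells had been confluent, and do not say whether both array types received the same RNA. Each side of the comparison was 1 sample, so no test was possible and every difference below is a measured difference between these samples.

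Fibroblasts in sparse culture respond to serum growth factors and pass through the cell cycle, whereas fibroblasts that touch their neighbours on all sides leave it and rest, a state known as contact inhibition or quiescence. Proliferating cells express the genes of DNA replication and of mitosis in separate waves, under E2F factors in late G1 and S phase and under the MuvB, B-Myb and FoxM1 complexes in G2 and M phase. In 3T3-L1 cells, growth arrest at confluence is followed, on hormone addition, by a short return to division and then by the adipocyte programme.

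The values were intensities per probe set, the set of short probes that reads 1 transcript. Values below a floor of 136 on array A or 156 on array B were set to that floor before taking log2, and a fold against a value at the floor is given as at least that size. A probe set was called different when its 2 values differed 2-fold or more and the brighter one was above 500. On array A, 2203 of 6529 probe sets that were not controls lay above this limit in at least 1 sample. Of these, 163 (7.4%) were called higher and 195 (8.85%) lower in the confluent sample. On array B, 1929 of 6540 lay above the limit, with 135 (7%) higher and 195 (10.1%) lower. Together 16.3% of the bright probe sets of array A and 17.1% of those of array B were called, against 10.7% to 19.2% on array A and 6.89% to 13.9% on array B for the other steps between neighbouring time points.

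**Figure D1:**
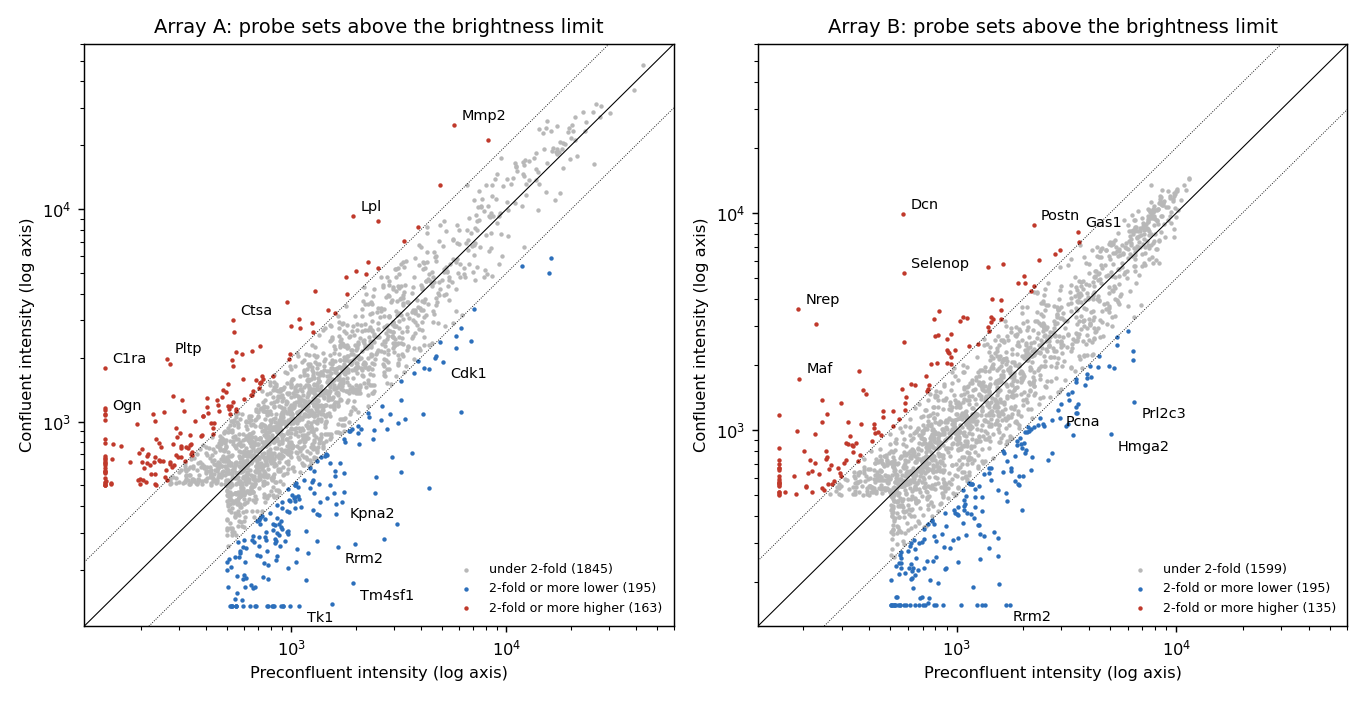
Intensity of each probe set above the brightness limit in the preconfluent (x) and the confluent (y) sample on log axes, array A left and array B right, with lower values raised to the floor. Coloured points differ 2-fold or more, the dotted lines mark 2-fold and the solid line equality; 163 points of array A and 135 of array B lie above the upper line, and 195 on each array below the lower one.

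With 1 probe set taken per gene, 2354 named genes lay above the limit, of which 187 (7.94%) were higher and 190 (8.07%) lower in the confluent sample. Their median log2 difference was 0.04 and 52.6% of them lay above 0, so the 2 arrays of each pair were centred on the same level. These 3 figures are the background for every gene list below. Agreement between probe sets of a gene, which share the sample, stood in for replicates. Some of these probe sets come from the same sequence record, as for Amot, Ebna1bp2, Prmt1, Prps1 and Srsf1, and are not separate checks. Of 308 genes with 2 or more bright probe sets, 9 (2.92%) were called higher on all of them and 14 (4.55%) lower on all of them, while 59 were called on some, 226 on none and 0 in opposite directions. The pooled SD of the log2 difference among probe sets of 1 gene was 0.45. A gene read by 1 probe set has no such check.

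The genes higher on all bright probe sets were Nrep, Selenop, Ctsa, Ldhb, Igfbp4, Amot, Cst3, Cox7a2l and Tmem59. Nrep, a small cytoplasmic protein found in regenerating nerve and in wound fibroblasts, gave the largest such difference: 190 in the preconfluent and 3590 in the confluent sample on 1 probe set (18.9-fold), and 229 and 3080 on the other (13.4-fold). Selenop, the secreted selenium carrier selenoprotein P, gave 574 and 5270 (9.18-fold) and, on its dimmer probe set, -43 and 669 (at least 4.29-fold). Both Nrep probe sets are of the type shared within a gene family, which can also bind related transcripts. The same holds for both probe sets of Ctsa, Ldhb, Igfbp4 and Cox7a2l. Amot, an angiomotin that binds YAP at cell junctions, gave 388 and 1060 (2.73-fold) and 311 and 1270 (4.08-fold). Both Amot probe sets come from the same sequence record.

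Lower on all bright probe sets were Fosl1, Rrm2, Top2a, Mtm1, Anln, Ifrd1, Kpna2, Actc1, Srsf1, Ebna1bp2, Prps1, Pa2g4, Naa15 and Prmt1. Both bright probe sets of Top2a, Ifrd1 and Actc1 are of the family type. Rrm2, the small subunit of ribonucleotide reductase, read 3230 and 579 (5.58-fold) and 1640 and 257 (6.38-fold) on array A, and 1670 and -6 on array B (at least 10.7-fold). Fosl1, the AP-1 subunit Fra-1, read 821 and -248 on array A (at least 6.04-fold) and 1240 and 9 on array B (at least 7.95-fold). Anln, anillin of the cytokinetic ring, read 3630 and 708 (5.13-fold) and 844 and 222 (3.8-fold). Of these 14 genes, at least Rrm2, Top2a, Anln and Kpna2 are known to be transcribed mainly in dividing cells.

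For 117 genes measured above the limit on both array types, the log2 differences of the 2 arrays correlated across genes with Pearson's r of 0.68 and Spearman's rho of 0.62, given as a description since genes are not independent replicates. The sign was the same for 81 of them. All 10 genes called lower on array A lay below 0 on array B as well, where 4 were called, and all 4 called higher on array A lay above 0 on array B. Called the same way on both were Rrm2, Fosl1, Top2a and Pa2g4, lower, and Ctsa, higher. Single genes disagreed: Plaur, the urokinase receptor, read 811 and 685 on array A but 740 and 159 on array B, and Ahcy, called lower on array B at -1.08, lay at 0.31 on array A.

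**Figure D2:**
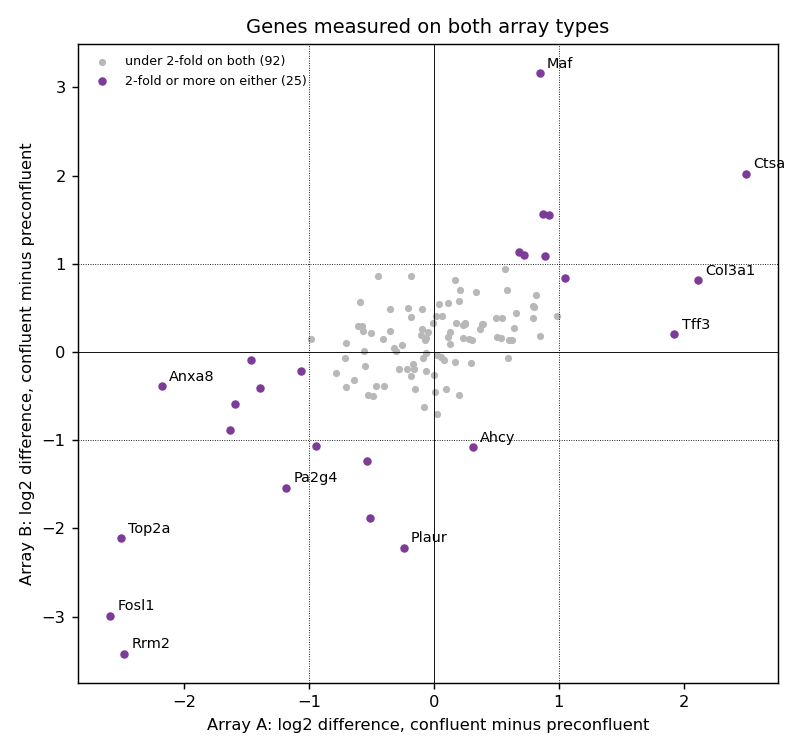
Log2 difference, confluent minus preconfluent, of 117 genes above the brightness limit on both array types, array A on the x axis and array B on the y axis, with dotted lines at 2-fold. The 25 genes called on either array are purple; Rrm2, Fosl1, Top2a and Pa2g4 lie past 2-fold low on both and Ctsa past 2-fold high on both, while Ahcy lies on opposite sides.

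Control probe sets moved as well. The 18S ribosomal RNA probe sets were brighter in the confluent sample, with 299 and 509 for the 5' end on array A, against 207 and 560 on array B. Every Gapdh and beta-actin control was dimmer in the confluent sample on array A and brighter on array B. At the 5' end Gapdh read 28100 and 16000 on array A but 10800 and 14600 on array B. Beta-actin read 29700 and 20500 on array A but 7610 and 10400 on array B. As a sign of RNA or cRNA length, 3' over 5' probe set ratios were compared. They were 0.986 in the preconfluent and 1.33 in the confluent sample for Gapdh on array A and 1.05 and 1.48 for beta-actin, while array B gave 0.815 and 0.788, and 0.824 and 0.872. The fibroblast label was checked against its markers: 15 of 16 fibroblast markers measured lay above the limit, with a summed intensity of 87766 and 128735. Of the macrophage markers 5 of 15 lay above it (sums of 8013 and 7908), of the adipocyte markers 2 of 8, of the muscle markers 3 of 13, and of the endothelial and epithelial markers 1 of 10 and 1 of 9. Adgre1, Csf1r, Pecam1, Cdh1 and Lep were below the floor in both samples. Other members of these lists were bright. The macrophage markers Ptprc and Cd14 read 1510 and 1480, and 2070 and 2470. The muscle markers Ckm and Myog read 2970 and 3670, and 739 and 519. The endothelial marker Kdr read 1010 and 820 and the epithelial marker Krt7 521 and 493. The part of these control and marker values in the differences was not tested, and in bulk RNA fewer cells of a kind and less RNA per cell cannot be told apart.

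Cell division genes were lower in the confluent sample. Of 22 mitosis genes above the limit, 15 were called lower and none higher, all 22 lay below 0, and their median was -1.65 beside 0.04 for all genes. Top2a, the topoisomerase that untangles sister chromosomes, read 772 and -132 on array A (at least 5.68-fold) and 675 and 81 on array B (at least 4.33-fold). Cenpa, the centromeric histone, read 551 and 29. Ube2c, which loads ubiquitin for the anaphase-promoting complex, read 1760 and 468 (3.76-fold), so genes of chromosome structure and of mitotic exit were both lower.

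The mitotic cyclins and their kinase were part of the same group. Ccnb2, cyclin B2, read 1700 and 469, and Ccna2, cyclin A2, read 2600 and 725. Cdk1, the kinase that both activate, read 5070 and 1910, a 2.65-fold difference. Mki67, the proliferation marker Ki-67, read 3380 and 943. The kinases Aurka (847 and 273) and Plk1 (1440 and 687), the midzone proteins Prc1 (596 and 181) and Racgap1 (3130 and 989), and Cks1b (1570 and 463), Cdca3 (1470 and 436) and Bub3 (1910 and 923) completed the called members with Anln. Second probe sets of Aurka (844 and 458), Cdca3 (634 and 434) and Bub3 (1720 and 1030) lay below 0 short of 2-fold. Short of 2-fold were Kif2c, Kif20a, Incenp, Ncaph, Stmn1, Pttg1 and Hmmr, of which Hmmr was nearest to equal at 1610 and 1220.

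DNA replication genes were lower in part. Of 16 above the limit, 9 were called lower and none higher, 15 lay below 0, and the median was -1.09. The subunits of the MCM helicase that opens the DNA were called: Mcm4 (887 and 259), Mcm7 (1750 and 574), Mcm6 (1040 and 393) and Mcm3 (1010 and 405). Mcm5 (856 and 444) and Mcm2 (1610 and 890) lay short of 2-fold on the same side. Dbf4, which activates the kinase that fires origins, read 588 and 145, Pcna, the sliding clamp, 2890 and 1240, Lig1, the replicative ligase, 1470 and 694, and Rpa1, which coats single strands, 1430 and 671. Dnmt1, which copies DNA methylation onto the new strand, read 730 and 249. Rpa3 alone lay above 0, at 579 and 646.

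Nucleotide synthesis went with replication: 7 of 14 genes above the limit were called lower, none higher, with a median of -1.01. Tk1, the thymidine kinase of S phase, read 1090 and -116 (at least 8.01-fold). Rrm1, the large subunit of ribonucleotide reductase, read 836 and 268 beside the Rrm2 values above. Shmt2 (522 and 99), Nme1 (1350 and 509), Impdh1 (560 and 232) and Prps1 (1030 and 438) were the others called. Thymidylate synthase, Tyms, lay short of 2-fold at 653 and 494, and the purine salvage enzyme Hprt lay on the other side at 400 and 713.

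Promoter sequences were read for these genes because 2 short motifs mark the 2 waves: the E2F site, searched as TTTCGCGC or TTTGGCGC, and the CHR element, searched as TTTGAA, which often stands with a CCAAT box. Windows ran from 250 bases before to 50 after each RefSeq start (build GRCm38.p6), both strands were searched, and 1904 of the 2354 bright genes had a window. TTTGAA stood in all 16 windows of the 14 called mitosis genes with a promoter, against 17.9% of all 32851 windows and 12% of those of bright genes, and in 2 of 4 windows of the mitosis genes not called. CCAAT stood in 15 of the 16, against 37.4% of all windows. Either E2F site stood in 5 of 22 windows (22.7%) of the called replication and nucleotide genes and in 1 of 17 of those not called, against 0.813% of all windows and 2.03% of those of bright genes. Over all genes called lower the share with an E2F site was 7.45%, and over those called higher 2.59%. A match is a description of the letters and no evidence of binding. Stretches of 150 bases that end at the start site are shown for a replication gene, Mcm6 (chr1:128359706-128359855, minus strand), and for the mitosis genes Cdk1 (chr10:69352913-69353062, minus), Top2a (chr11:99024190-99024339, minus) and Cks1b (chr3:89418292-89418441, minus), with the motifs in capitals on the strand of the gene (GCGCGAAA, ATTGG and TTCAAA are motifs read on the other strand).
Mcm6: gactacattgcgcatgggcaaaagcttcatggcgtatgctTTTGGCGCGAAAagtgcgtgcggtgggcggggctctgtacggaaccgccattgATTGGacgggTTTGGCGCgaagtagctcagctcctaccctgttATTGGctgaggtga
Cdk1: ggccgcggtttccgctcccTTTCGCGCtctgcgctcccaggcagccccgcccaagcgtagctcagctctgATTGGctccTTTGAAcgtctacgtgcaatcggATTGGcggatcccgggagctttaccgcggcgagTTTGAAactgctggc
Top2a: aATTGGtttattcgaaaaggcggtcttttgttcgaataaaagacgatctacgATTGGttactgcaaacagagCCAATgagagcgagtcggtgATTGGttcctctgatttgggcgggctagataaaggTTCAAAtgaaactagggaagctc
Cks1b: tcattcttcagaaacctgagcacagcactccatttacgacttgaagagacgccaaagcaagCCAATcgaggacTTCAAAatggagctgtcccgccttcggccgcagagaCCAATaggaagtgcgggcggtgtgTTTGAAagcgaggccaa
Mcm6 holds overlapping E2F sites and a second one nearer the start, with 2 CCAAT boxes and no TTTGAA in this stretch. Cdk1 holds an E2F site 131 bases before its start and TTTGAA 71 and 15 bases before it. Top2a and Cks1b hold TTTGAA 23 and 17 bases before the start, with CCAAT boxes upstream.

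Regulators upstream of these waves differed less. Of 7 G1 cyclin and E2F pathway genes above the limit, 0 were called, and the median was -0.08. Ccnd2, cyclin D2, read 4600 and 4550, Cdk4, its kinase, 3200 and 3790, E2f1 1150 and 1090 and Ccne1, cyclin E1, 1100 and 1060. Ccnd1, cyclin D1, which growth factors induce, lay lowest at 4230 and 2640 on a probe set of the family type. Among 8 CDK inhibitors and antiproliferative genes, Cdkn1b, the inhibitor p27, was called higher at 523 and 1190 (2.28-fold). Btg2 (325 and 558) and Cdkn2c, the inhibitor p18 (1260 and 1710), lay above 0 short of 2-fold. Btg1 read 491 and 899 on array A, short of 2-fold, and 1110 and 3290 on array B, where it was called higher. Cdkn1a, p21, read 1100 and 729 on array A and 1250 and 1850 on array B, so its direction was not settled.

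Immediate early genes, which serum switches on within minutes, were lower as a group: 9 of 19 above the limit were called lower, none higher, with a median of -0.85. Junb read 832 and 127 (at least 6.12-fold) and Fosl1 the values above, both subunits of AP-1. Jun, their partner, read 651 and 258 on array B. Ccn1, a matricellular protein that YAP and serum induce, read 598 and 86 (at least 4.4-fold). Phlda1 (650 and 169), Klf10 (711 and 230), Klf2 (608 and 218), Ier2 (569 and 230) and the phosphatase Dusp1 (614 and 293) were the other called members. Egr1 ran the other way at 934 and 1720, as did Jund at 4500 and 6680, both short of 2-fold.

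Secreted proliferins and several surface receptors were lower too. Prl2c2, proliferin, read 6170 and 1110 on array A (5.56-fold) and Prl2c3, its near-identical relative, 6430 and 1350 on array B (4.76-fold). Both probe sets are of the family type, so they may read the same transcripts. Tm4sf1, a tetraspanin-like membrane protein of migrating cells, gave the largest lower fold of array A, 1930 and 173 (11.2-fold). Hmga2, a chromatin protein of embryonic and transformed cells, read 5030 and 953 (5.28-fold). The receptors Itga5, the fibronectin receptor subunit (802 and -3), Cd44, the hyaluronan receptor (705 and 100), Epha2 (742 and 215) and Itga6 (877 and 288) were lower as well.

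Targets of YAP and serum response factor gave no shared direction. Of 16 above the limit, 3 were called lower and 1 higher, with a median of -0.04. Tagln, the smooth muscle protein SM22, read 2260 and 1100 and Tagln2 11800 and 5380. F3, tissue factor, read 281 and 1320 (4.7-fold higher). Among 35 actin and adhesion genes 3 were called lower (Itga5, Itga6 and Pdlim1) and none higher, and the median was -0.32. Tpm4 (5630 and 2920), Fscn1 (5190 and 2810) and Actn1 (3480 and 2270), which bind or bundle actin filaments, lay below 0, whereas Marcks (2420 and 4220) and Gsn (4200 and 5300) lay above it. Some probe sets of the same genes went further, with 641 and 32 and 618 and 183 for Actn1 and 551 and 2120 for Marcks. The probe sets of Actb, beta-actin itself, lay above 0 (13700 and 15400, 6700 and 9120, and 2110 and 2840). Its control probe sets on array A read 31300 and 30300 at the 3' end and 29700 and 20500 at the 5' end. The beta-actin ratios of array A above were computed from these values.

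Nuclear and nucleolar genes were the second large group below 0. Of 20 ribosome biogenesis genes above the limit 8 were called lower, none higher, with a median of -0.85. Nop56 (968 and 204) and Fbl, fibrillarin (3910 and 1730), which belong to the particles that methylate ribosomal RNA, Gar1 (2460 and 1070) of those that pseudouridylate it, and Nolc1 (1060 and 252), Gnl3, nucleostemin (1600 and 586), Ebna1bp2, Mybbp1a and Tcof1 were the called members. Ncl, nucleolin, lay just short at 6420 and 3320. Of 27 chromatin genes 9 were lower and none higher (median -0.55), among them Lbr, the lamin B receptor (682 and 20), Hmgb2 (967 and 312), the histone variants H2ax (1510 and 500) and H2az1 (3230 and 1560), and the import factor Kpna2 (16200 and 5910). On array B, H2ax read 4310 and 2870, short of 2-fold.

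Rangap1, which turns off the nuclear transport GTPase Ran, stood in no list and gave one of the larger differences of array A, 1540 and 139 (11.1-fold). From the chromatin list, Rcc1, which turns Ran on, read 886 and 228 (3.89-fold), Ranbp1 4090 and 1760 and Ran itself 5950 and 5000. Of 30 splicing and RNA-binding genes 7 were lower (median -0.43): Ddx39a (1320 and 273), Srsf1, Srsf2 (3230 and 1260), Srsf3 (628 and 223), Hnrnpab (3360 and 1030), Sfpq and Snrpc. Cirbp, the cold-inducible RNA-binding protein, was the 1 higher member at 74 and 586 (at least 4.31-fold). For Hnrnpab, other probe sets of the gene differed less, with 2370 and 1480 on the brightest of them.

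Ribosomal protein genes did not follow the nucleolus. Of 37 above the limit 34 lay above 0 and 1 was called, with a median of 0.34, and of 0.17 after quantile normalization. Most lie at the bright end, where all probe sets with a mean above 8000 had a median difference of 0.22 (array A) or 0.33 (array B), and of 0.07 or 0.04 after quantile normalization. Rplp0 (20900 and 27300) and Rps28 (17100 and 24700) show the size of the difference. The 1 called member, Rpl10, was read by a dim probe set at 162 and 766. Translation factors and tRNA synthetases lay the other way (median -0.36, with 2 of 29 called lower, Farsb and Eif3b), as did 23 chaperones (median -0.37) with Cct3 (1350 and 363) called. Proteasome subunits had a median of -0.44 with 2 of 23 called lower, Psmc1 (1050 and 516) and Psmd3. Psmd3 read 762 and 276 on array A but 2630 and 2470 on array B, so that call did not hold on its other probe set.

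**Figure D3:**
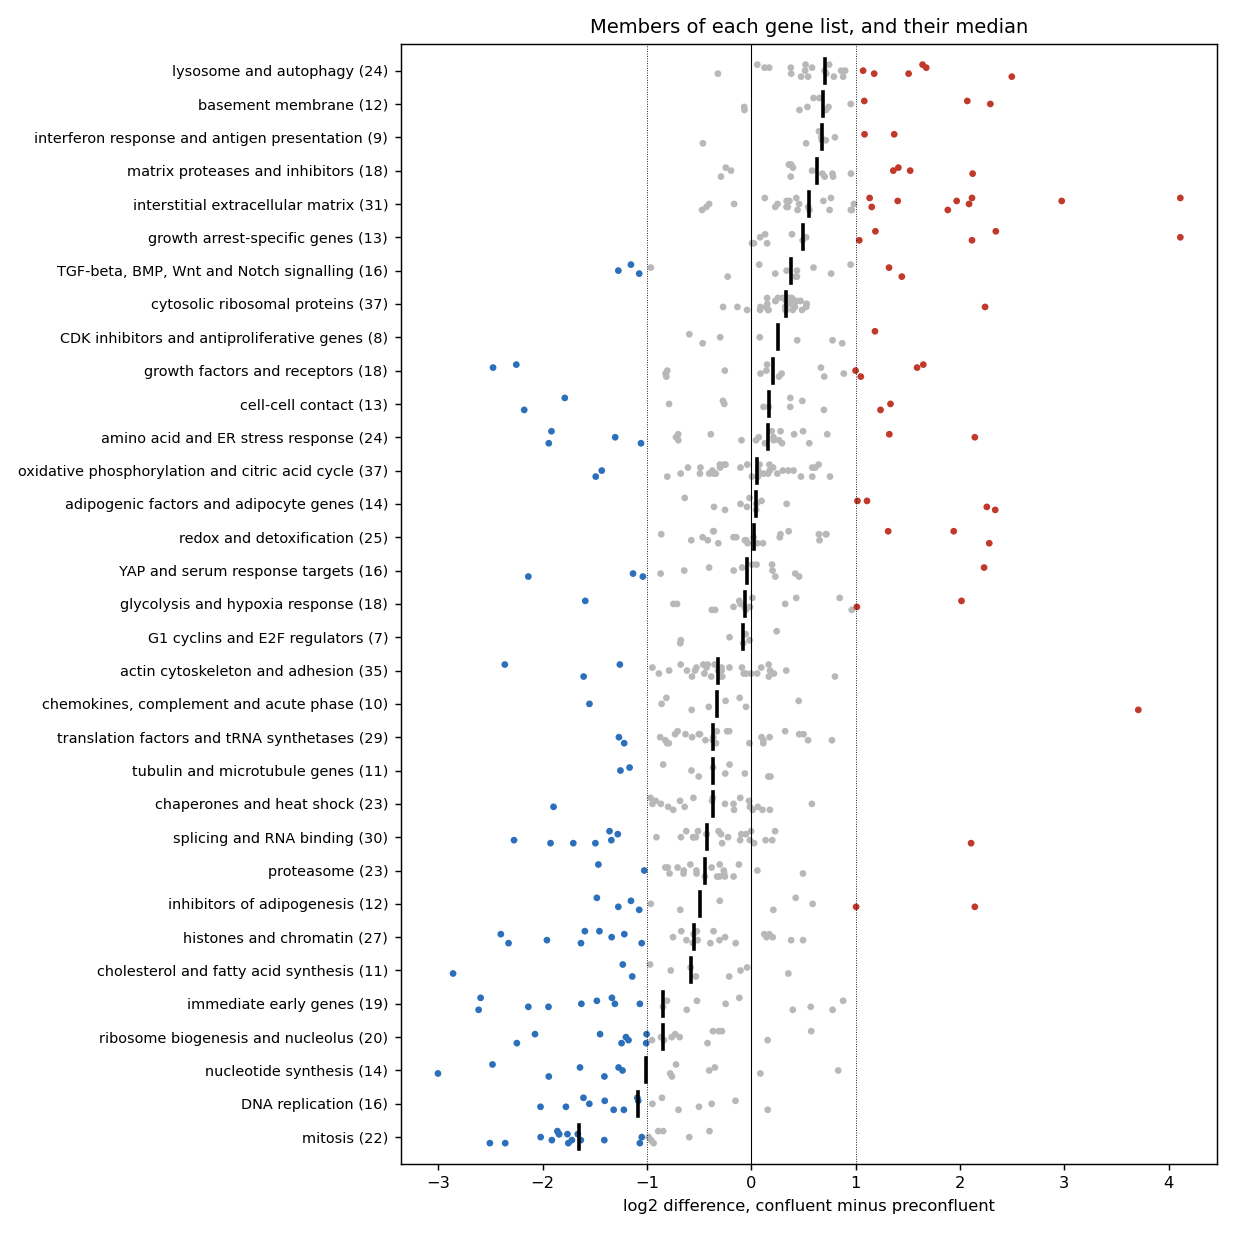
Log2 difference, confluent minus preconfluent, of each member above the brightness limit (points) and the median (black bar) of each gene list other than the cell type markers, with the number of members in brackets, ordered by median. Red and blue points are called higher and lower and dotted lines mark 2-fold; mitosis (median -1.65), DNA replication (-1.09) and nucleotide synthesis (-1.01) stand lowest, lysosome and autophagy (0.71) and basement membrane (0.68) highest.

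Extracellular matrix genes were higher in part. Of 31 interstitial matrix genes above the limit 9 were called higher, none lower, with a median of 0.56. Dcn, decorin, a proteoglycan that coats collagen fibrils, read 571 and 9880, a 17.3-fold difference, on array B second in size to that of Nrep. Ogn, osteoglycin, of the same protein family, read 53 and 1070 (at least 7.87-fold). Postn, periostin, read 2240 and 8770 and Mgp, matrix Gla protein, an inhibitor of calcification, 835 and 3550. Thbs2 (597 and 1580), Matn2 (131 and 502), Sparcl1 (512 and 1140) and Tnc, tenascin C (245 and 538), were called as well.

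The main fibrillar collagens differed less than these associated proteins. Col1a1 read 19400 and 23100, Col1a2 7840 and 10100 and Col5a1 4280 and 6300. Col3a1 was called on array A at 233 and 1010 (4.33-fold) and read 7630 and 13400 on array B (1.76-fold). The list counts use its dimmer array A probe set. Fn1, fibronectin, lay just short of 2-fold on array A at 6570 and 13000 and read 8330 and 11100 on array B. P4ha2, a collagen proline hydroxylase just outside the fold at 341 and 665 (1.95-fold), and Vegfd, just inside at 1250 and 2500, show how close the border runs: 108 probe sets had a log2 difference between 1 and 1.1 in size and 117 between 0.9 and 1.

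Basement membrane genes had a median of 0.68, with 3 of 12 called higher and none lower. Lama4, laminin alpha 4, read 70 and 666 (at least 4.9-fold), Lamc1, laminin gamma 1, 604 and 1280, and Col8a1, a network collagen, 228 and 958. Col4a2 (4270 and 8270) and Col4a1 (3410 and 5700) lay just short. Of 18 matrix proteases and inhibitors 4 were higher and none lower, with a median of 0.63. Mmp2, gelatinase A, read 5720 and 24900 (4.35-fold). Plat, the tissue plasminogen activator (407 and 1170), Adamts1 (2000 and 5140) and Cst3, the protease inhibitor cystatin C (4890 and 13000, and 29 and 1090 on a second probe set), were the others. The inhibitors Timp1 (7470 and 6110), Timp2 (1620 and 2600) and Timp3 (2150 and 1880) were not called.

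Genes listed as growth arrest-specific were all on the same side: 13 of 13 above the limit lay above 0, and 5 were called higher, with a median of 0.49. The list also holds genes not named for growth arrest, among them Pdgfra, Pdgfrb, Axl, Ddr2, Pros1, Dcn and Col3a1. Gas1, a membrane protein first cloned from serum-starved 3T3 cells, read 3580 and 8170 (2.28-fold). Pmp22, also called Gas3, read 1590 and 3260. Pdgfra, the platelet-derived growth factor receptor alpha, read 192 and 975 (5.08-fold), while its relative Pdgfrb read 1710 and 1900. The other 2 called members, Dcn and Col3a1, are the matrix genes above. Gas6, a ligand of Axl, read 4020 and 5790, and Gas5, a noncoding RNA, 4790 and 6740, whereas Axl (6270 and 6300) and Gas2 (1110 and 1130) were near equal.

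Contact and growth factor genes went both ways, with 2 higher and 2 lower of 13 (median 0.17) and 4 higher and 2 lower of 18 (median 0.21). Vcam1 (2030 and 5120) and Ncam1 (987 and 2330), adhesion molecules of the immunoglobulin family, were called higher. Other Ncam1 probe sets differed less, with 612 and 796 on the next brightest. The cadherins Cdh2 (651 and 844) and Cdh11 (517 and 726), which join fibroblasts to each other, lay short of 2-fold. Among growth factor genes Igfbp4, which binds insulin-like growth factors (255 and 800, and 123 and 669), Igf2r, which clears one of them (212 and 638), and Grn, progranulin (2540 and 5260, with 3220 and 5770 on array B), were called higher, and the proliferins lower. In the TGF-beta, BMP, Wnt and Notch list (2 higher and 3 lower of 16, median 0.38) Tgfbi (478 and 1300) and Fstl1 (2270 and 5670) were called higher, while the BMP targets Id1 (6020 and 2860) and Id2 (1990 and 823) and the activin subunit Inhba (1890 and 850) were called lower. Id3 lay on the same side at 1750 and 898.

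Lysosomal genes had the highest median of the lists other than cell type markers, 0.71, with 6 of 24 above the limit called higher, none lower, and 23 of 24 above 0. Ctsa, cathepsin A, read 533 and 3010 on array A (5.65-fold) and 1390 and 5650 on array B (4.06-fold). Hexa, the alpha subunit of beta-hexosaminidase, read 713 and 2280, Lamp2, a protein of the lysosomal membrane, 355 and 1010, and the proton pump subunits Atp6v0d1 and Atp6v1a 1480 and 3350, and 585 and 1230. Idua was called on a value near the floor, 165 and 515. Psap (3910 and 6770), Ctsd (4120 and 6710), Lamp1 (7680 and 11200) and Gabarap (9450 and 17400) lay short of 2-fold on the same side. Among genes in no list, the lysosomal enzymes Arsa (907 and 2630), Man2b2 (387 and 1060, with 370 and 563 on a second probe set), Dpp7 (255 and 1110) and Pld3 (1290 and 4120) were called higher too, and were picked out after their values were seen. The motif TCACGTGA, the core of the element that TFEB and TFE3 bind in lysosomal genes, was added to the search after these values were seen. It stood in 3 of 7 windows of the called lysosomal genes and in 1 of 17 of those not called, against 0.974% of all windows and 2.23% of those of bright genes; over all genes called higher the share was 4.66%, and over those called lower 1.6%. The 150 bases before the starts of Ctsa (chr2:164833623-164833772, plus strand) and Atp6v1a (chr16:44139260-44139409, minus strand) are shown from RefSeq, build GRCm38.p6, with the motif in capitals.
Ctsa: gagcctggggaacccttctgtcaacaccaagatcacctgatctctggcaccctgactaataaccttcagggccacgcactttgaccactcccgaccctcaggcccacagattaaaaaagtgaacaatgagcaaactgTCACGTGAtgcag
Atp6v1a: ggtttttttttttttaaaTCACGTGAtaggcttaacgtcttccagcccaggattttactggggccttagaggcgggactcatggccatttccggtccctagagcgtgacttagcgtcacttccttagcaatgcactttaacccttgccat
In Ctsa the motif lay 13 bases before the start and in Atp6v1a 132 bases before it. For Ctsa the window shown was chosen because it holds the motif, whereas for Atp6v1a the first window was taken.

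Of 10 chemokine, complement and acute phase genes 1 was called higher and 1 lower, 8 lay below 0, and the median was -0.33. C1ra, a protease of the complement cascade, read 84 and 1780 (at least 13.1-fold) on 1 probe set but 526 and 640 on another. Ccl7, a monocyte attractant, was the 1 called lower, at 2200 and 751, whereas Ccl2 (911 and 687) and Cxcl12 (5860 and 5660) were not called. Single genes in no list were among the larger differences. Pltp, the phospholipid transfer protein, read 265 and 1980 (7.47-fold), Lgals3bp 360 and 1870 (5.19-fold) and Apod, apolipoprotein D, 151 and 697 (at least 4.47-fold). Fcgrt, the neonatal Fc receptor, read -4 and 1160. The glutathione transferases Gstm2 (956 and 3670) and Gstm5 (541 and 2630) and Xdh, xanthine dehydrogenase (918 and 2280), were the 3 of 25 redox genes called, all higher, with a list median of 0.02. A second probe set of Gstm5 read 400 and 584, short of 2-fold. Of 9 interferon and antigen presentation genes Ifi27 (8200 and 21200) and Tapbp (3340 and 7090) were called higher, with a median of 0.68.

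Transcription and stress regulators included some of the larger single differences. Maf, a basic leucine zipper factor, read 192 and 1720 and 243 and 1380 on 2 probe sets of array B (8.96-fold and 5.68-fold) and 324 and 583 on array A (1.8-fold). The 2 array B probe sets of Maf come from the same sequence record. Ddit3, the C/EBP homologous protein CHOP, which blocks C/EBP factors, read 575 and 2540 (4.42-fold). Its list, the amino acid and ER stress response, had 2 called higher and 4 lower of 24, with a median of 0.16. P4hb, a disulphide isomerase and collagen hydroxylase subunit, was the other higher member at 1590 and 3980. Atf4 (3690 and 4280), Hspa5 (1990 and 2180) and Trib3 (603 and 461) were not called. The serine synthesis enzymes Psat1 (4110 and 1090) and Phgdh (4370 and 1770), with Shmt2 and Asns (4930 and 2370), were called lower, and these are known targets of Atf4. Bcl2l11, the death factor Bim, read -31 and 796 (at least 5.85-fold) and Neat1, a nuclear noncoding RNA, 274 and 1870 (6.82-fold). Among genes in no list that were chosen after their values were seen, Pdcd4 (535 and 1820), Socs2 (47 and 641), Per1 (146 and 666) and Tcf4 (307 and 749) were higher and Bdnf (1210 and 442) lower.

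Energy metabolism differed at single enzymes and not as a group. Of 37 oxidative phosphorylation and citric acid cycle genes 2 were called lower and none higher, with a median of 0.06: Cycs, cytochrome c (5210 and 1930, and 1840 and 1090 on a second probe set), and Uqcrc1 (1110 and 395). Cox7a2l, which joins respiratory complexes, was outside that list and higher on both probe sets (2940 and 6730, and 2380 and 6050). In glycolysis Pgam1 was lower (2780 and 923), and Ldhb, the heart type of lactate dehydrogenase, was higher (376 and 1520, and 257 and 1190), while Ldha, the muscle type, read 7660 and 7130. The pentose phosphate pathway gave Pgd at 986 and -34 (at least 7.25-fold lower) and Tkt at 1770 and 803, but Pgls, the lactonase that acts just before Pgd, at 83 and 826 (at least 6.07-fold higher). Sqle, squalene epoxidase, read 1040 and 443. The cholesterol and fatty acid synthesis list also holds Pgd and Tkt, and these 3 were its members called lower of 11 (median -0.58). Sqle was thus its only called member outside the pentose phosphate pathway.

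Genes of adipocytes were called in 4 cases, all higher before any hormone. Of 14 above the limit the median was 0.05. Lpl, lipoprotein lipase, read 1940 and 9280 (4.78-fold) and Lipe, hormone-sensitive lipase, -651 and 688 (at least 5.06-fold). Dgat1 (433 and 877) and Ppard (234 and 505) passed narrowly. Factors that start adipogenesis were not called, with Cebpb at 2750 and 2840 and Cebpd at 716 and 696, and the adipocyte products Adipoq (96 and 138), Fabp4 (191 and -20) and Slc2a4 (32 and 10) lay below or near the floor. Of 12 inhibitors of adipogenesis 4 were called lower (Klf2, Id1, Id2 and Inhba) and 2 higher (Ddit3 and Twist1, at 817 and 1640). Dlk1, the preadipocyte protein Pref-1, read 5260 and 7910. The median of that list was -0.49, and 0.21 over its members on array A alone.

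The later samples show where these levels went after induction, as values side by side, since the confluent sample also serves as the start of that course. The 15 mitosis genes called lower each had their highest value after induction at 24 hours, where 14% of all bright genes had theirs. Ccnb2 read 209 at 6 hours, 180 at 12 hours and 2260 at 24 hours, above its preconfluent 1700, and 602 on day 2. Mki67 read 4490 at 24 hours and 1370 on day 2. Of the 9 replication genes called lower, 4 had their highest value at 12 hours and 4 at 24 hours, with Mcm4 at 1200 at 12 hours and 533 at 24 hours. The bright probe set of Dbf4 read 224 at most after induction, at 24 hours, short of its preconfluent 588.

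Of the 9 immediate early genes called lower, 5 had their highest value after induction at 6 hours, where 19.2% of all bright genes had theirs. Fosl1 read 1850 at 6 hours on array A and 1760 on array B at that time, above its preconfluent values, and Junb read 570, short of its own. Ccn1 stayed at 73 or lower in all samples after induction. Genes of other lists or of none, chosen after their values were seen, also went either way. At 6 hours Itga5 read 2840, Hmga2 5060 and Id2 3560, each above its preconfluent value. Tm4sf1 stayed at 81 or lower after induction and Ccl7 at 89 or lower, and Prl2c2 reached 1760 at 24 hours, well short of its preconfluent 6170. The low confluent value was thus lasting for some of these genes and passing for others.

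The higher genes split in the same way. Nrep read 388 at 6 hours on its brighter probe set and 1200 at most afterwards, on day 28, and Ogn read 390 and then 146. Col8a1 read 171 at 6 hours and lay below the floor in every later sample, Plat read 445 and lay below the floor from 24 hours on, and Amot read 192 and 8 on its 2 probe sets at 6 hours. Dcn (8320 at 6 hours), Postn (8140) and Mmp2 (22300) were near their confluent values then and lay at 1530, 1180 and 4270 on day 7. Selenop stayed above its preconfluent 574, between 3930 and 8010 after induction beside 5270 in the confluent sample. Its dimmer probe set read 669 in the confluent sample and 1860 on day 28. Lpl read 6260 at 6 hours and 39300 on day 7, Lipe 543 and 20000, and Ldhb 960 and 3410.

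**Figure D4:**
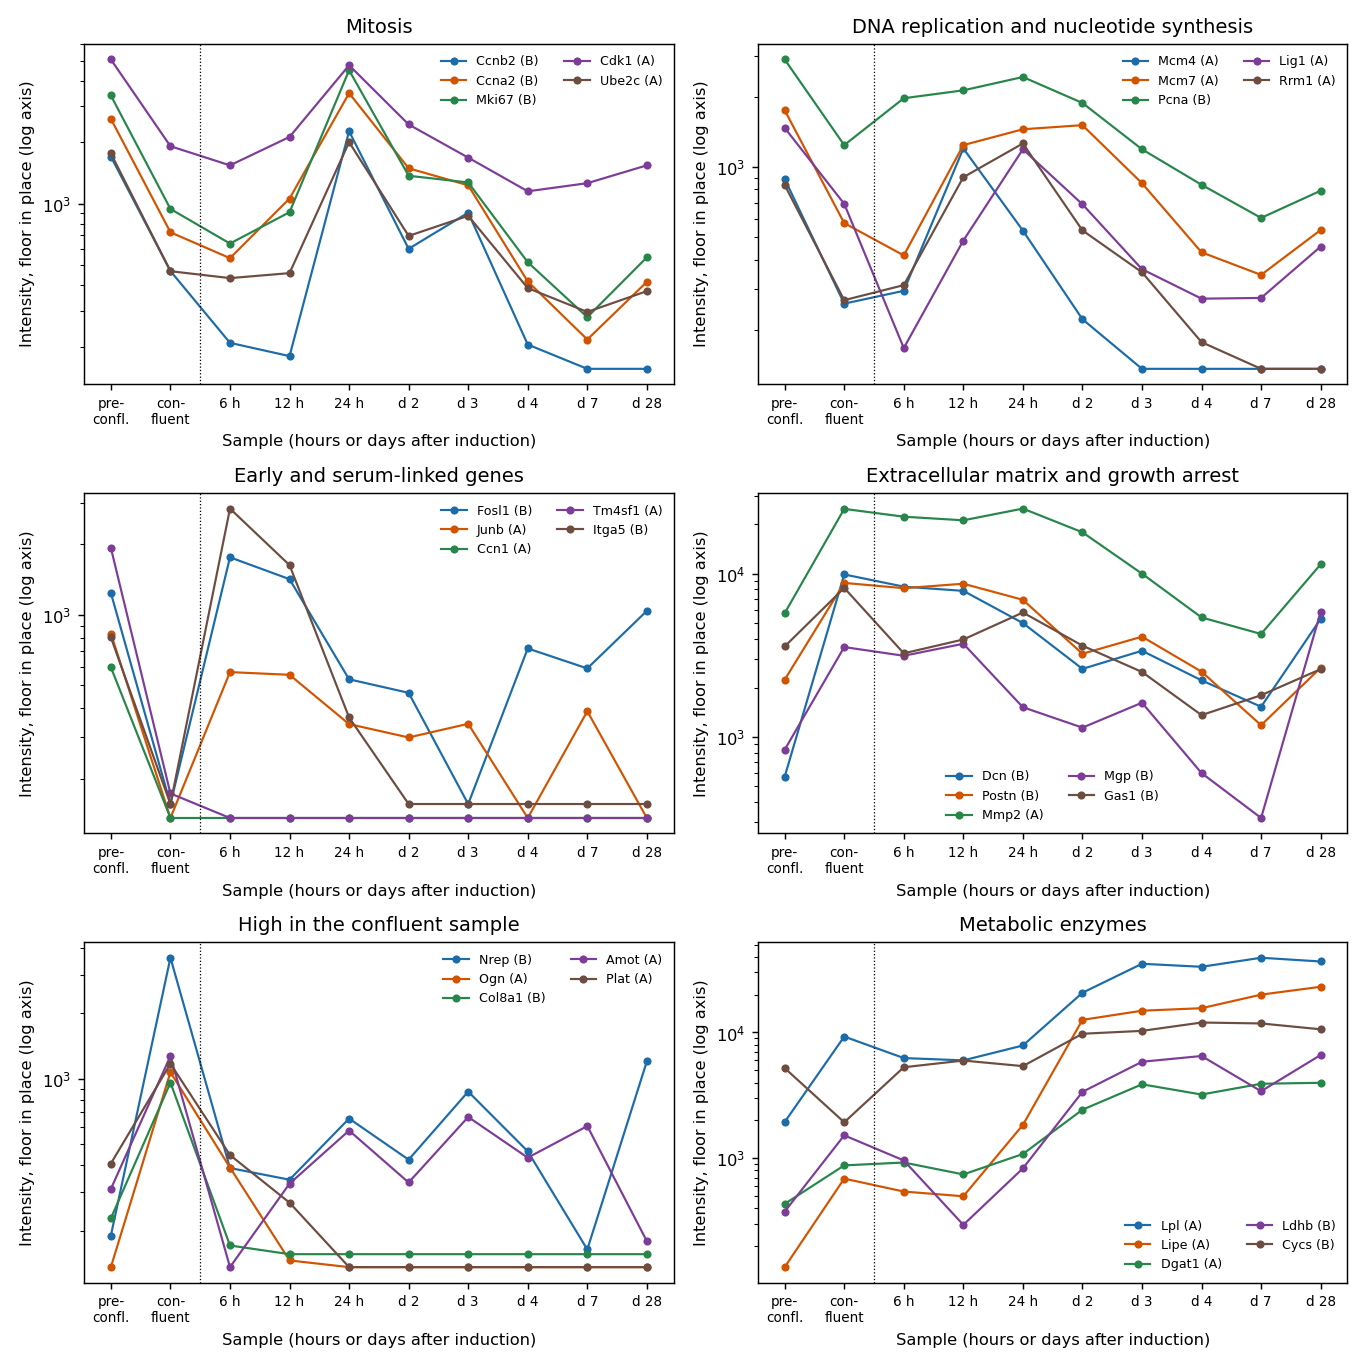
Intensity over all 10 samples in order (log axis, values below the floor set to it, the array type in brackets) of genes called between the preconfluent and confluent samples; the dotted line marks induction. Mitosis genes have their highest value after induction at 24 hours, Tm4sf1 and Ccn1 stay at the floor, Nrep, Ogn, Col8a1 and Plat stand highest in the confluent sample, and Lpl and Lipe go on to 39300 and 23100.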

How the data were processed

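Each array had a deposited table of linear intensities per probe set, made by the authors after the array maker's manual per the labels; software and version are not given in the sources used here. A deposited intensity can lie below 0, as 24.4% of array A and 29.6% of array B values did in the preconfluent sample. The mean after trimming 2% at each end was 500.9 and 501 in the preconfluent and confluent sample on both array types, so the authors' scaling was kept. Control probe sets were left out. The floor was minus the 10th percentile of all values of an array type, which gave 136 (array A) and 156 (array B). Log2 differences were computed with Python 3.11.15, numpy 2.4.6 and pandas 2.3.3, and the call rule was tested on simulated data. The simulated noise was set smaller than the SD among probe sets of 1 gene given above. It therefore gives no rate of false calls for these arrays. Names came from the platform annotation, for probe sets with exactly 1 symbol, 5541 on array A and 2001 on array B. Each gene was read from its brightest probe set, array A first unless only array B passed the limit. The naming rule picked the 10 largest differences per direction and array and genes whose bright probe sets were all called. From each list it picked up to 4 called members per direction, or the brightest where none was called. Not every gene picked is described above. Of the largest differences of array A, Cdipt (915 and 31) and Tgif2 (1170 and 180) were lower, and Entpd6 (-11 and 1130) and Synpo (90 and 1020) higher. A dim second probe set of Tgif2 read 384 and 444. Beyond the rule, other members of the 39 lists were chosen to describe them after their values were seen. The comparison, the gene lists and the rule were chosen with earlier results of these data known. The number of arrays limits the precision. Other floors, brightness limits, folds, scalings and probe types were tried as alternatives.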

Additional observations from a re-analysis of the deposited data

How the results depend on the processing

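No paired analysis was possible because each side was 1 sample. The called counts moved with the rule. With the brighter value above 300, array A gave 556 calls in place of 358, 266 of them higher. With it above 1000, array A gave 178 (79 higher, 99 lower) and array B 192 (75 and 117) in place of 330. A fold of 3 gave 150 (66 and 84) and 130 (51 and 79). Without probe sets of a shared or special type, 73 (27 and 46) and 26 (11 and 15) were called, since only 417 and 178 bright probe sets were left, of which 17.5% and 14.6% were called. The gene lists then held too few members to read. Of mitosis genes 1 of 2 was lower and of replication genes 2 of 2. Of interstitial matrix genes 0 of 2 were higher and of lysosomal genes 0 of 2. No growth arrest-specific gene was left. Genes with all bright probe sets agreeing numbered 23, and 14, 10 and 0 with a limit of 1000, a fold of 3 and without those types. Quantile normalization gave 359 and 324 calls. Of 130 called genes named by the rule, 130 stayed past 2-fold with 1/2 of the floor and after quantile normalization, and 125 with 2 times the floor, where Idua, Pa2g4, Ppard, Shmt2 and Snrpc did not. With the median set to 0, 126 stayed and Dgat1, Slc2a1, Twist1 and Vegfd did not. None of these 130 reversed. The median of the adipogenesis inhibitors was -0.49, and 0.21 on array A alone; that of the skeletal muscle markers was 0.22, and -0.51 on array A alone. The mature adipocyte markers, 2 genes with 1 at the floor, had a median of 1.04, and 1.54 and 0.54 with the lower and the higher floor. The array A only values were added after the data were seen. Of 26 lists with a median of at least 0.3 in size, 0 changed sign under the other floors and scalings. Values near the floor carry only a bound.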

Other observations

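Of all 2354 named genes above the limit, 7.94% were called higher and 8.07% lower. The 625 of them that stood in a list gave 145 called genes. The larger rest, in none of the lists, gave 232 called genes, 135 higher and 97 lower. The higher ones included the junction and Hippo pathway protein Frmd6 (406 in the preconfluent and 1290 in the confluent sample), the endocytic receptors Lrp1 (2190 and 4380) and Mrc2 (237 and 624), the cytokine receptor subunit Il6st (201 and 642), the phosphatase Ctdsp2 (2530 and 8780) and the collagen proline hydroxylase P3h3 (308 and 771). The lower ones included the nuclear import receptors Kpnb1 (900 and 312), Ipo7 (936 and 274) and Tnpo1 (2050 and 958), which carry proteins into the nucleus, the spermidine synthase Srm (5850 and 2230), the RNA export factor Alyref (1690 and 638), the translation release factors Etf1 (2290 and 1050) and Gspt1 (1610 and 408) and the mitochondrial carrier Slc25a5 (7080 and 3390). Srm and Slc25a5 were called on array A and lay at -0.41 and -0.22 in log2 difference on array B, and 1 of the 3 Etf1 probe sets read 1340 and 1110. These genes were chosen after their values were seen.

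Among all probe sets above the limit, 16.3% were called on array A and 17.1% on array B. Probe sets without a single gene symbol were called as well. Of 242 above the limit on array A, 12 were higher and 22 lower, and of 1183 on array B, 70 were higher and 141 lower. What they measure was not analysed here.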
